A study of Mus musculus with 6 samples.

Results

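The mouse miRNA families miR-297, miR-466, miR-467 and miR-669 were followed in small RNA sequencing of mouse skin. Members were chosen by name alone: an entry of the read count table was kept when its name, without the species prefix, the arm and the copy number, was that of 1 of these 4 families with an optional letter. In entries that the authors merged under joined names, 1 fitting name was enough. This gave 44 of the 1480 entries, with 3 in the miR-297, 13 in the miR-466, 10 in the miR-467 and 18 in the miR-669 family. The merged miR-669m-5p/miR-466m-5p bears names of both families and was counted with miR-669. Skin of mice exposed to ultraviolet A (UVA) light on alternate days for 4 months, to 89.88 J/cm2 in all, was compared with skin of mice that were not irradiated (unexposed below). Each group had 3 libraries. The sources used here do not give strain, age or sex. Nothing in the labels says that the replicates of a group are separate animals, so a p-value reflects no more than the spread among these libraries, which may be technical.

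A miRNA is cut from a hairpin in a longer transcript, and either arm of the hairpin (5p or 3p) can give a mature strand. Bases 2 to 8 of that strand, the seed, pair with target mRNAs. Most hairpins of these 4 families lie in a long tandem array in an intron of Sfmbt2, a Polycomb group gene that is imprinted and expressed from the paternal chromosome in mouse extraembryonic tissue. The array is specific to rodents and is best known from embryonic stem cells and the placenta. Of single members, miR-669a is known to act on the MyoD mRNA in mouse heart progenitors, and miR-467 on thrombospondin mRNA in mouse cells.

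In GRCm38, Sfmbt2 spans 10370510 to 10595253 on the plus strand of chromosome 2. The mature sequences of all 44 members were found whole in annotated hairpins, and 42 of the 44 in hairpins inside this gene. These matched hairpins number 70, lie on the same strand within 51.6 kb, from 10466663 to 10518279, and none of the 119 annotated miRNA genes inside Sfmbt2 overlaps an exon. Exceptions were miR-466k, whose hairpin is on chromosome 3 at 85467377 to 85467498, and miR-466i-3p, on chromosome 13 at 17747473 to 17747593. miR-297a-5p matched hairpins on chromosome 7 besides those in Sfmbt2. Among the best covered members, miR-669c-5p came from a single hairpin, Mir669c at 10509296 to 10509404, as did miR-669o-5p (Mir669o, 10514300 to 10514395), miR-669l-5p (Mir669l, 10468971 to 10469068), miR-467c-5p (Mir467c, 10473931 to 10474027), miR-467d-5p (Mir467d, 10507630 to 10507714) and miR-467e-5p (Mir467e, 10505721 to 10505807). By contrast, the sequence of miR-467a-5p lay in 12 hairpins and that of miR-669a-5p/miR-669p-5p in 15, so their reads cannot be given to 1 hairpin.

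The 5p strands of the miR-467 family are shown because they hold most reads of the 4 families and because their seeds fall 1 base apart. Capitals mark the seed, each strand runs 5′ to 3′ as in the deposited table, with T for U, and miR-292a-3p, a miRNA of the embryonic miR-290 to miR-295 cluster, is added for its shared seed.
miR-467a-5p: tAAGTGCCtgcatgtatatgcg
miR-467b-5p: gTAAGTGCctgcatgtatatg
miR-467c-5p: tAAGTGCGtgcatgtatatgtg
miR-467d-5p: tAAGTGCGcgcatgtatatgcg
miR-292a-3p: aAAGTGCCgccaggttttgagtgt
miR-467a-5p and miR-292a-3p both have the seed AAGTGCC and differ in the rest of the strand. miR-467b-5p shares an unbroken run of 20 bases with miR-467a-5p but begins 1 base earlier, so its seed is TAAGTGC. All 4 of these miR-467 strands, and miR-467e-5p, miR-669d-5p and miR-669l-5p, end in or near the run GCATGTATATG, which none of the 1064 miRBase-named entries outside the families holds.

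The 5p strands of the miR-669 family are shown because all 4 of the tested ones had levels that did not overlap between the groups. Of all tested miRNAs, 20.0% did not overlap and were lower in UVA. The filter on low counts, given below, favoured a lower UVA level in miR-669l-5p.
miR-669a-5p/miR-669p-5p: aGTTGTGTgtgcatgttcatgtct
miR-669l-5p: aGTTGTGTgtgcatgtatatgt
miR-669o-5p: tAGTTGTGtgtgcatgtttatgt
miR-669c-5p: aTAGTTGTgtgtggatgtgtgt
All 4 hold the run AGTTGTGTGTG, which starts at base 1 in miR-669a-5p/miR-669p-5p and miR-669l-5p, at base 2 in miR-669o-5p and at base 3 in miR-669c-5p. The run is therefore read as 3 different seeds. Apart from these, only miR-669f-5p among the 44 members has it, and 0 of the 1064 other named entries.

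The 3p strands are made mostly of A and C. A pair that differs by a single leading base is shown because the count of each depends on where reads of the other were taken to start.
miR-466a-3p/miR-466e-3p: tATACATAcacgcacacataaga
miR-466b-3p/miR-466c-3p/miR-466p-3p: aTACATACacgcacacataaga
In the 20 members named 3p, A and C made up a median of 77.3% of the bases (range 71.4% to 86.4%), and in the 22 named 5p, T and G made up 71.8% (59.1% to 86.4%). For other named miRNAs the medians were 50.0% A and C in 515 strands named 3p and 57.1% T and G in 454 named 5p. The repeat TGTGTG was found in 16 of the 22 5p members and ACACAC in 16 of the 20 3p members, against 1.79% and 0.564% of the 1064 other named entries (only the strand as listed was searched). The 44 members carry 27 different seeds, and 27 members share theirs with at least 1 other member. In 28 of the 44, the sequence lies within 2 edits of another entry, always of the same 4 families. The sources used here do not say how reads were divided between such neighbours, and the split between members is uncertain to that extent.

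The libraries held 7653819 to 17192811 miRNA reads, and they differed in how rare miRNAs were recorded. Over all 1480 entries, non-irradiated replicates 1 and 2 had 21 and 34 entries with 1 to 9 reads and the UVA libraries 579 to 591. The members show the same split. Reads were present for 40, 31 and 30 of the 44 members in UVA replicates 1 to 3 and for 22, 20 and 28 in the non-irradiated replicates. Members with 1 to 9 reads numbered 22, 19 and 19 in the UVA libraries, 14 in non-irradiated replicate 3, and only 1 and 2 in non-irradiated replicates 1 and 2. With 10 or more reads there were 18, 12 and 11 members with UVA and 21, 18 and 14 without. Of the 44 members, 13 had reads in the UVA group alone, 1 to 12 reads over its 3 libraries. Only miR-669e-3p had reads, 11 in all, in the non-irradiated group alone. These absences were not read as differences between the groups, since non-irradiated replicates 1 and 2 hardly list low counts for any miRNA.

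**Figure D1:**
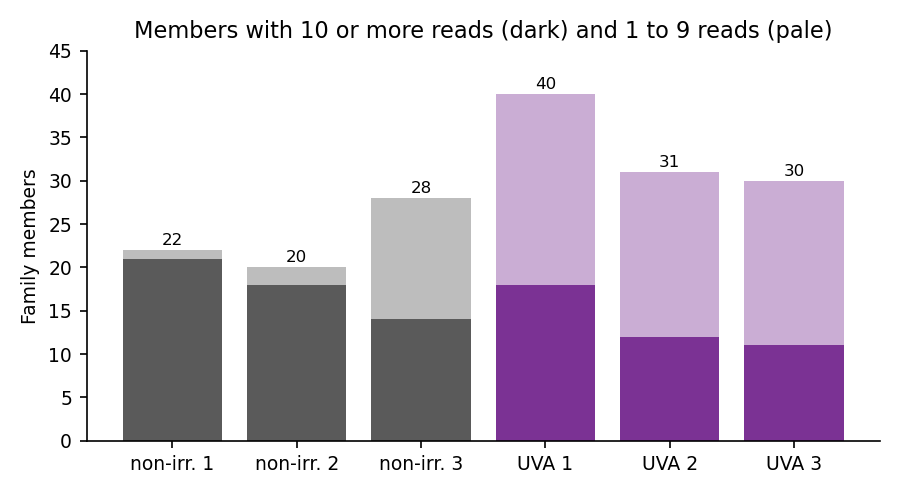
Number of family members with 10 or more reads (dark) and with 1 to 9 reads (pale) in each library, of 44; the number over each bar is their sum. Non-irradiated replicates 1 and 2 have 1 and 2 members with 1 to 9 reads and the UVA replicates 19 to 22, while the counts with 10 or more reads lie between 11 and 21 in all 6 libraries.

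The families were minor components of the skin miRNAs, and together they were lower in the UVA libraries. Over all members, UVA replicates 1 to 3 had 188, 73.1 and 104 RPM of miRNA reads (reads per M reads) (exact 95% Clopper-Pearson intervals of 181 to 196, 68.2 to 78.2 and 97.0 to 111, counting error only). The non-irradiated replicates had 266, 273 and 250.3 RPM (257 to 274, 265 to 281 and 239 to 262). All 3 UVA libraries were thus below all 3 non-irradiated libraries on this scale. From here on, levels are CPM (counts per M reads) of the library after TMM scaling, a factor per library that keeps most tested miRNAs level between libraries. In CPM the sum over members was 100.4 ± 48.1 in UVA and 319 ± 39.6 in unexposed skin (mean ± SD, n = 3 per group), 3.18-fold lower in UVA. As RPM of the authors' totals, which include reads outside the miRNAs, the sums were 110, 38.9 and 41.6 in UVA and 131, 153.9 and 71.2 in unexposed skin, and the groups overlapped. Fewer cells with these miRNAs and less of them per cell cannot be told apart in bulk tissue.

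The miR-467 family held 59.5% of the members' reads, the miR-669 family 35.4%, the miR-466 family 4.68% and the miR-297 family 0.501%. The miR-669 sum was 34.8, 28.7 and 46.4 CPM in UVA replicates 1 to 3 and 174, 75.2 and 98.6 CPM in the non-irradiated replicates. It did not overlap between the groups under any of the 3 scalings tried, but nearly touched under the others. Without TMM, UVA replicate 3 was at 55.3 and non-irradiated replicate 2 at 57.3 RPM of miRNA reads. As RPM of the authors' totals, UVA replicate 1 was at 24.9 and non-irradiated replicate 3 at 25.2. The miR-467 sum was 108, 27.8 and 35.7 CPM in UVA and 121, 276 and 171 CPM in unexposed skin. It did not overlap in CPM, with UVA replicate 1 just under non-irradiated replicate 1, but overlapped without TMM and as RPM of the authors' totals. The miR-466 sum was 10.5, 2.90 and 4.92 CPM in UVA and 23.2, 6.80 and 8.88 CPM in unexposed skin, which overlapped. Reads of the miR-297 family were too few for a level: 10, 11 and 2 reads with UVA and 43, 0 and 7 without. The 0 is in non-irradiated replicate 2, one of the libraries that list few low counts, and sets no limit on the level there.

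**Figure D2:**
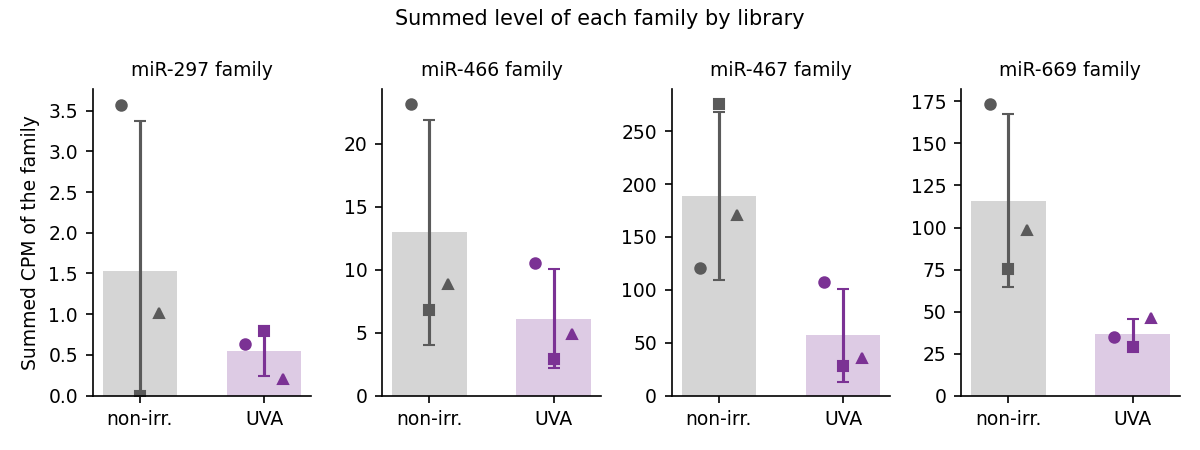
Summed CPM of each family; points are libraries (circle, square and triangle for replicates 1, 2 and 3), bars the group means and whiskers 1 SD (n = 3), ending at 0 where the SD exceeds the mean. The scales differ between panels. The miR-467 and miR-669 sums of the UVA libraries lie below all non-irradiated libraries, and those of miR-297 and miR-466 overlap.

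miR-467a-5p was the most abundant member, with 6987 reads over the 6 libraries and 80.7% of the reads of its family. It stood at 94.7, 21.1 and 15.2 CPM in UVA replicates 1 to 3 and at 78.9, 247 and 128 CPM in the non-irradiated replicates. UVA replicate 1 lay above non-irradiated replicate 1, so the groups overlapped, and the UVA mean of 43.7 CPM was 18.2 CPM without that library. The log2 fold change was -1.79 (SE 0.77) and was not called (edgeR adjusted p = 0.111). It was called lower without UVA replicate 1 (log2 fold change -3.12, edgeR adjusted p = 0.0116) and with limma-voom (adjusted p = 0.0489). UVA replicate 1 also had the highest summed level of the leukocyte markers, 1362 CPM against 368.7 and 563 CPM in the other UVA libraries. The erythroid sum was 3403 CPM there, against 807 and 1455 CPM. The leukocyte sum was high through miR-142a-3p (13090, 941 and 979 reads in UVA replicates 1 to 3) and miR-142a-5p (5483, 279 and 309). This excess was not shared by miR-150-5p (1497, 2294 and 1363 reads) or miR-223-3p (1276, 1578 and 2846). The erythroid sum was high through miR-451a (46290, 7136 and 6274 reads) and miR-144-3p (2242, 146 and 80), but not miR-486a-5p/miR-486b-5p (4816, 3862 and 7847). The part of these markers in the miR-467a-5p value was not tested. Without miR-467a-5p, the sum of all other members was 59.0, 39.1 and 72.0 CPM in UVA and 242, 111 and 151 CPM in unexposed skin, and the groups did not overlap.

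miR-467d-5p had the tightest non-irradiated values of the tested members: 5.40, 5.73 and 5.83 CPM, against 0.702, 1.52 and 2.15 CPM in UVA. The groups did not overlap, but the UVA values rest on 11, 21 and 21 reads, and the log2 fold change of -1.95 (SE 0.83) was not called (edgeR adjusted p = 0.106; DESeq2 adjusted p = 0.0227). miR-467c-5p, which has the same seed, AAGTGCG, was at 1.79, 1.16 and 12.1 CPM in UVA and 16.5, 12.1 and 11.5 CPM in unexposed skin. Here UVA replicate 3 sat among the non-irradiated libraries and the other UVA libraries far below them. It was not called (edgeR log2 fold change -1.43 with SE 0.91, adjusted p = 0.255), but was without that library, at -3.16 (edgeR adjusted p = 0.0212), and with limma-voom (adjusted p = 0.0498). miR-467e-5p was at 3.89, 2.03 and 3.18 CPM in UVA and 6.89, 3.82 and 15.6 CPM in unexposed skin, with non-irradiated replicate 2 just under UVA replicate 1 (edgeR log2 fold change -1.52 with SE 0.79, not called).

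The shifted miR-467b-5p was at 0.893, 1.01 and 1.13 CPM in UVA and 0, 0.611 and 2.91 CPM in unexposed skin. Its 0 is in non-irradiated replicate 1, one of the libraries that list few low counts, and is not read as an absence. Its log2 fold change of -0.17 (SE 1.34) changed sign under 5 of the 16 alternatives. Its non-irradiated mean was 1.17 CPM and 0.306 CPM without replicate 3. The 3p strand miR-467d-3p, whose sequence lies in 12 hairpins, was at 4.40, 0.362 and 1.85 CPM in UVA and 9.80, 2.44 and 6.12 CPM in unexposed skin, which overlapped. The family gave 94.5% to 96.6% of its arm-named reads from the 5p arm in UVA and 89.3% to 97.5% in unexposed skin, so the arms kept their order in every library.

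miR-669a-5p/miR-669p-5p, an entry of joined names, was the only member of the miR-669 family called lower in the main edgeR comparison. It was at 7.34, 6.37 and 13.1 CPM in UVA and 34.7, 32.9 and 25.1 CPM in unexposed skin, with no overlap (edgeR log2 fold change -1.79 with SE 0.56, adjusted p = 0.0471). The call was lost in 10 of 16 alternatives, with adjusted p from 0.00250 to 0.252 over all 16, while the log2 fold change stayed between -2.16 and -1.15. miR-669c-5p, the second most read member of the 4 families with 2633 reads from its single hairpin, was at 11.8, 12.9 and 26.3 CPM in UVA and 109, 28.7 and 46.6 CPM in unexposed skin. The groups did not overlap, with UVA replicate 3 close to non-irradiated replicate 2, and it was not called (edgeR log2 fold change -1.86 with SE 0.65, adjusted p = 0.0656). Its non-irradiated mean of 61.6 CPM was 37.7 CPM without replicate 1. It was called lower without UVA replicate 3 (edgeR adjusted p = 0.0442), without non-irradiated replicate 2 (edgeR adjusted p = 0.0327), with sequences within 1 edit summed (edgeR adjusted p = 0.0467) and with DESeq2 (adjusted p = 0.0114).

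miR-669l-5p and miR-669o-5p had the most negative log2 fold changes of the 14 tested members, at low counts. miR-669o-5p was at 1.02, 1.09 and 1.44 CPM in UVA, from 14 to 16 reads a library, and 4.98, 3.28 and 11.4 CPM in unexposed skin (edgeR log2 fold change -2.46 with SE 0.86, adjusted p = 0.0652). miR-669l-5p had 4, 10 and 9 reads with UVA and 74, 23 and 20 without, 0.255, 0.724 and 0.922 against 6.15, 1.76 and 2.91 CPM (edgeR log2 fold change -2.50 with SE 0.99, adjusted p = 0.0863). Neither overlapped between the groups and neither was called by edgeR with all 6 libraries. DESeq2 called both lower (adjusted p = 0.00874 for miR-669o-5p and 0.0291 for miR-669l-5p), and edgeR called miR-669o-5p lower without non-irradiated replicate 2 (adjusted p = 0.0458). The 3p strand miR-669a-3p/miR-669o-3p was not called, at 11.6, 5.65 and 4.00 CPM in UVA and 17.3, 5.58 and 9.76 CPM in unexposed skin (edgeR log2 fold change -0.62 with SE 0.72, adjusted p = 0.547). Its log2 fold change was -1.24 without UVA replicate 1 and 0.21 with the authors' totals. Of 15 hairpins with the miR-669a-5p/miR-669p-5p sequence, 12 also hold this 3p sequence. The 5p strand made up 38.9%, 53.0% and 76.6% of the reads of this pair in UVA and 66.8%, 85.5% and 72.0% in unexposed skin, which overlapped, and the difference between the arms was not tested.

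In the miR-466 family 3 members were tested and none was called. miR-466a-3p/miR-466e-3p was at 2.81, 1.09 and 0.512 CPM in UVA and 5.15, 1.45 and 2.33 CPM in unexposed skin (edgeR log2 fold change -1.01 with SE 0.98, adjusted p = 0.465). miR-466c-5p was at 1.98, 0.869 and 1.13 CPM and at 7.81, 0.917 and 3.20 CPM (edgeR log2 fold change -1.58 with SE 1.00, adjusted p = 0.254). Both were highest in non-irradiated replicate 1, and the groups overlapped. With 1 library left out, the log2 fold change of miR-466a-3p/miR-466e-3p was between -1.94 (UVA replicate 1) and -0.40 (non-irradiated replicate 1). That of miR-466c-5p was between -2.25 (non-irradiated replicate 2) and -0.79 (non-irradiated replicate 1). The 1-base neighbour miR-466b-3p/miR-466c-3p/miR-466p-3p had 19, 1 and 5 reads in UVA and 52, 0 and 7 in unexposed skin. In non-irradiated replicates 1 and 2, miR-466a-3p/miR-466e-3p had 62 and 19. The 0 is in non-irradiated replicate 2, one of the libraries that list few low counts, and is not read as an absence. The log2 fold change of this neighbour was -1.55 (SE 1.52, edgeR adjusted p = 0.466), and its sign turned without non-irradiated replicate 1 (0.18). The 5p arm gave 36.9% to 58.7% of the arm-named miR-466 reads in UVA, and in unexposed skin 53.8%, 16.9% and 56.7% in replicates 1 to 3.

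**Figure D3:**
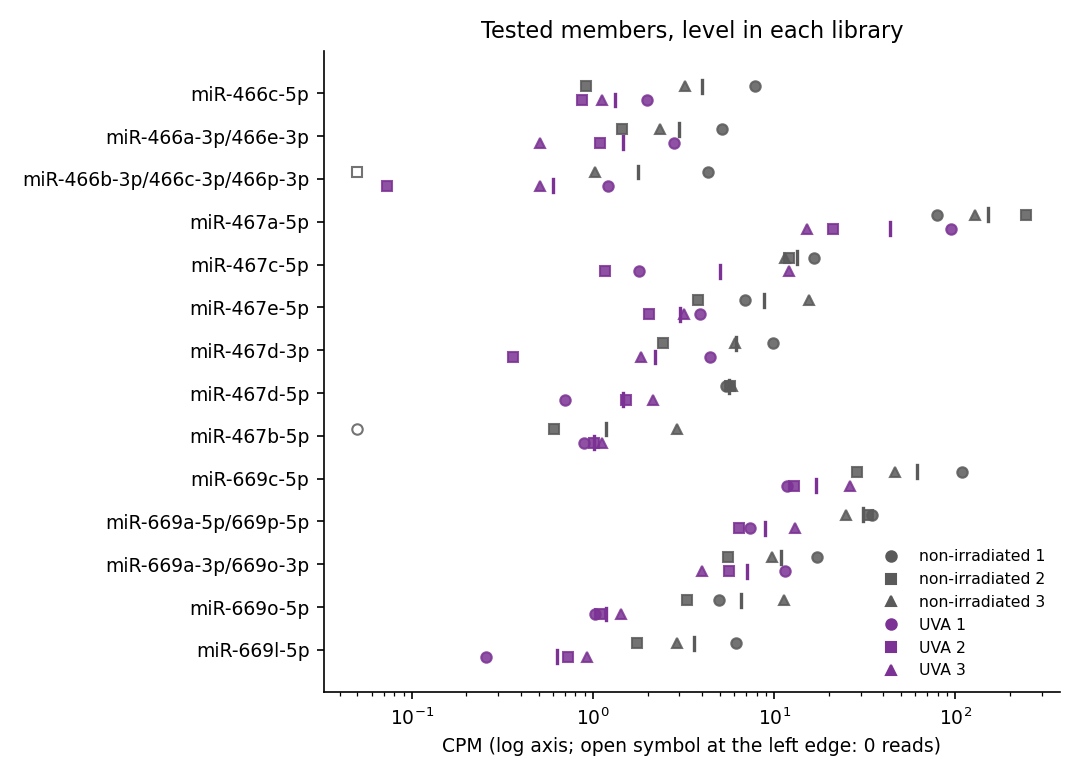
Level of the 14 tested members in each library, in CPM on a log axis; symbols mark replicates, vertical ticks the group means, and open symbols at the left edge 0 reads. The UVA points of miR-467d-5p, miR-669a-5p/miR-669p-5p, miR-669c-5p, miR-669l-5p and miR-669o-5p lie left of all their non-irradiated points; those of the other 9 overlap.

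Of the 44 members, 14 passed the filter on low counts, and these held 95.8% of the members' reads. The filter asks for about 0.826 CPM of the unscaled library in 3 libraries. Of the 14, 8 met it in all 6 libraries, 2 through the UVA group, 1 through both groups together and 3 through the non-irradiated group alone (miR-466a-3p/miR-466e-3p, miR-467d-3p and miR-669l-5p), and the filter favoured a lower UVA level in those 3. In the comparison over all 499 tested miRNAs, 1 of the 14 was called lower at an edgeR adjusted p of 0.05 or less, 13 were not called and none was called higher. Of all tested miRNAs, 8.22% were called lower and 13.6% higher, so 1 of 14 is near the background share. The count at an unadjusted p of 0.05 or less was 6 lower, against 15.6% of all tested miRNAs. Levels of 5 of the 14 did not overlap and were lower in UVA, against 20.0% of all tested. Without the 3 members that the filter favoured, 1 of 11 was called, 5 had an unadjusted p of 0.05 or less and 4 did not overlap. Under other tests of the same libraries the members called lower were 5 with DESeq2, where 15.4% of all tested miRNAs were, and 3 with limma-voom, where 13.4% were. With sequences within 1 edit summed they were 2 (10.3% of all), with no low-count filter 0 of 44 (3.24%) and with the replicate block 0 (9.02%). With other scaling factors the count stayed at 1, with 8.42% of all miRNAs for median-of-ratios factors and 9.22% for upper-quartile factors. Leaving out UVA replicates 1, 2 or 3 gave 1 of 17, 0 of 21 and 3 of 21 tested members, with 8.42%, 3.19% and 10.9% of all, and the 1 was miR-467a-5p. Leaving out non-irradiated replicates 1, 2 or 3 gave 0 of 15, 2 of 16 and 0 of 20, with 6.01%, 6.83% and 6.41%, and leaving out both replicates 1 and 2 gave 0 of 17 (0.168%). By family, the count without overlap was 4 of 5 for miR-669, 1 of 6 for miR-467 and 0 of 3 for miR-466, and 3 of 4, 1 of 5 and 0 of 2 without the members that the filter favoured.

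The log2 fold change was negative in all 14 tested members, with a median of -1.56. Without the 3 members that the filter favoured it was negative in 11 of 11, with a median of -1.58 (miR-467b-5p at -0.17 turns sign under 5 alternatives). Of all 499 tested miRNAs 44.5% were negative, with a median of 0.27. Of the same 11, the highest library was non-irradiated replicate 1 for 6, replicate 3 for 4 and replicate 2 for 1, and 43.3% of all tested miRNAs were highest in a non-irradiated library. These members share hairpins, near-identical sequences and libraries and are not independent, and these counts support nothing beyond the single values. The 30 members that were not tested had 1 to 110 reads each over the 6 libraries. Their sum was 9.38, 4.27 and 3.69 CPM in UVA and 13.7, 11.8 and 6.84 CPM in unexposed skin, and the groups overlapped. In the authors' deposited table, 4 of the 44 members had a p of 0.05 or less, all 4 lower in UVA (miR-669a-5p/miR-669p-5p, miR-669c-5p, miR-669l-5p and miR-669o-5p), against 4.73% of its 1480 entries, and 0 had a q of 0.05 or less, against 1.55%.

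The scaling sets how far the members lay below 0. With unscaled library size in place of TMM the median over all tested miRNAs moved from 0.27 to 0.81, and to 1.07 with the authors' totals. The median over the 14 members moved with it, to -1.04 and -0.87. A scaling factor shifts all miRNAs of a library alike, so the distance between these medians is nearly fixed and is no sign of stability. Under these scalings 0 members were called by edgeR, where 5.41% and 4.41% of all tested miRNAs were called lower, and 0 had an unadjusted p of 0.05 or less.

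**Figure D4:**
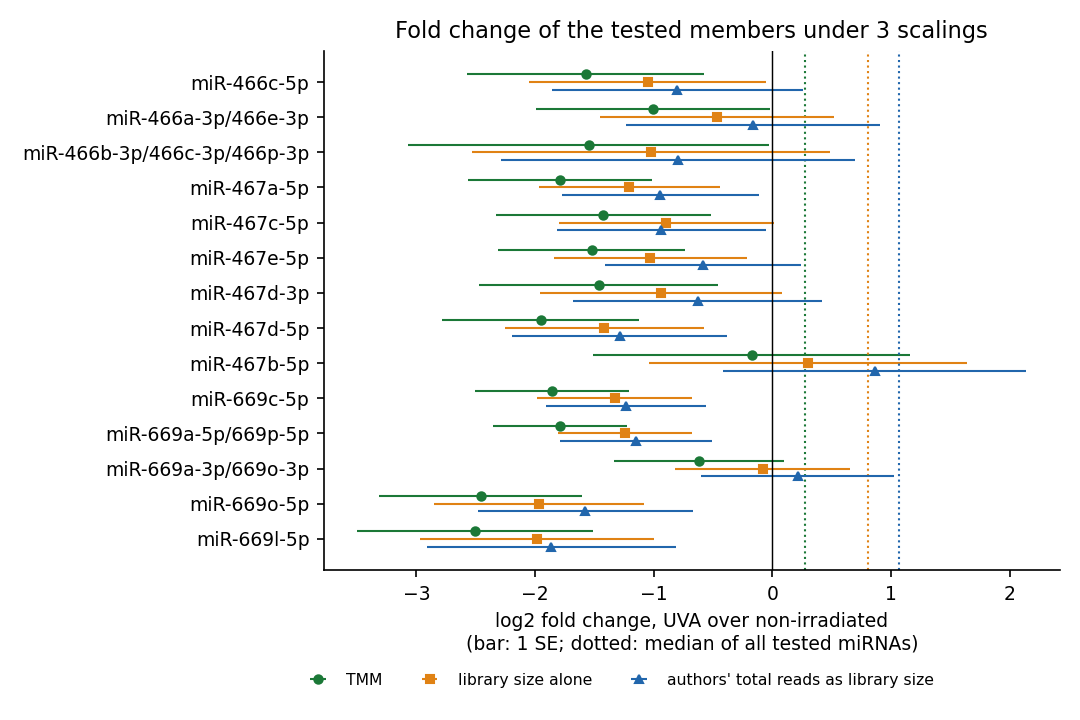
Log2 fold change (UVA over non-irradiated) of the 14 tested members with 1 SE from the edgeR fit, under TMM, unscaled library size and the authors' totals; dotted lines mark the median of all 499 tested miRNAs, 0.27, 0.81 and 1.07. Members shift right together with the dotted lines, and miR-467b-5p and miR-669a-3p/miR-669o-3p cross 0.

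Marker miRNAs of other cells and tissues were summed beside these values. The summed level of 6 skeletal muscle markers was 41910 to 58520 CPM in UVA and 318600 to 479300 CPM in unexposed skin, but this sum is mostly miR-1a-3p. Of the 5 muscle markers tested, edgeR called miR-1a-3p lower (log2 fold change -3.29, adjusted p = 0.00196) and miR-133b-3p higher (1.84, adjusted p = 0.0459). miR-133a-3p was at -0.02, miR-206-3p at -1.16 and miR-499-5p at -1.57, none called. The liver miRNA miR-122-5p was at 2.53 to 10.5 CPM in UVA and 51.8 to 153 CPM in unexposed skin, highest in replicate 1 (edgeR log2 fold change -4.04, adjusted p = 0.00673). Of the 4 leukocyte markers, miR-150-5p was called lower (edgeR log2 fold change -1.51, adjusted p = 0.0461). The others went the other way, with miR-142a-3p at 2.01, miR-142a-5p at 1.05 and miR-223-3p at 0.48, none called. The 3 fibroblast markers summed to 18570 to 28200 CPM in UVA and 2554 to 3761 CPM in unexposed skin. Of these, edgeR called miR-199a-3p/miR-199b-3p (log2 fold change 3.29, adjusted p = 0.00196) and miR-199a-5p (1.80, adjusted p = 0.0233) higher. miR-214-3p, at 1.14, was not called. The muscle sum was highest in non-irradiated replicate 1 (479300 CPM). The members' own sum was highest in non-irradiated replicate 2 (358 CPM), through miR-467a-5p (247 CPM there). Without miR-467a-5p it was highest in replicate 1, at 242, 111 and 151 CPM in non-irradiated replicates 1 to 3. The part of these markers in the members' levels was not tested. All 7 epithelial markers, the check on the skin label, had reads in every library and summed to 34090 to 86160 CPM in UVA and 44040 to 53950 CPM in unexposed skin. This sum is mostly miR-203-3p (edgeR log2 fold change 0.26, not called). Of the 7, edgeR called only miR-205-5p, which was higher (log2 fold change 2.97, adjusted p = 0.00450). Of 5 miRNAs of the miR-290 to miR-295 cluster, known from the same embryonic cells as the Sfmbt2 array, 4 were in the table. They summed to 4.27 to 8.10 CPM in UVA and 0 to 2.48 CPM in unexposed skin. Of these, miR-291a-3p was called higher (edgeR log2 fold change 8.16, adjusted p = 0.0123), and miR-294-3p and miR-295-3p were not called. miR-291a-3p had 32, 31 and 46 reads with UVA and 0, 0 and 0 without. miR-292a-3p, with the seed of miR-467a-5p, had 5 to 8 reads per UVA library and 0, 0 and 7 without irradiation. A 0 in non-irradiated replicates 1 and 2, which list few low counts, is not read as an absence.

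Reads did not follow the number of hairpins. Of the 44 sequences, 23 were found in 1 hairpin, 11 in 2 to 5 and 10 in 10 or more, up to 15. miR-669c-5p had 2633 reads from 1 hairpin, miR-467a-5p 582 reads for each of its 12, miR-669a-5p/miR-669p-5p 90.1 for each of its 15 and miR-466a-3p/miR-466e-3p 11.5 for each of its 14. Spearman's rho between hairpins and reads was 0.218 over the 44 members and -0.0898 over the 14 tested, given as a description since the members share libraries and sequence.

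**Figure D5:**
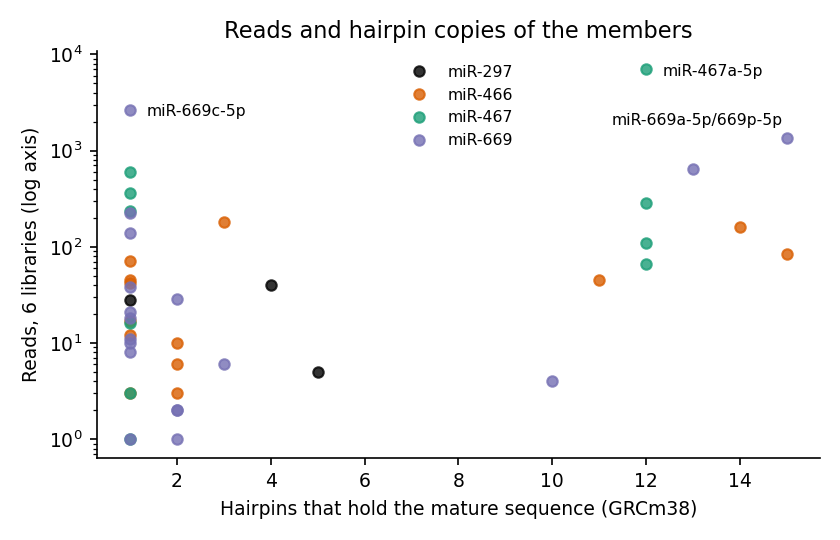
Reads of each of the 44 members over the 6 libraries (log axis) against the number of GRCm38 hairpins that hold its mature sequence, coloured by family. miR-669c-5p, with 1 hairpin, lies above miR-669a-5p/miR-669p-5p, with 15.

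The imprinted miR-379 to miR-410 cluster of the Dlk1-Dio3 region, expressed from the maternal chromosome, is the other large miRNA cluster set beside these families. It had 66 entries and 41 tested, of which 35 were negative, 13 called lower and none higher, with a median log2 fold change of -1.26. Of all 499 tested miRNAs, 44.5% were negative, 8.22% were called lower and 13.6% higher, with a median of 0.27. The most abundant tested miRNA of the cluster was miR-379-5p (edgeR log2 fold change -3.37 with SE 0.53, adjusted p = 0.00450). The median of the 14 tested members of the Sfmbt2 families was -1.56, with 1 called, and the difference between the clusters was not tested.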

How the data were processed

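Small RNA libraries were made from total RNA with mirVana isolation and the TruSeq kit for small RNA, as the labels' protocols state, and each column was matched to a sample by the name in its description. The authors deposited whole-number read counts per mature miRNA. Per the submitters' processing notes Bowtie was used; its version, the build and the miRNA release were not found in the sources used here. The deposited RPM values are counts over 1 constant per library, used here only to recover the authors' total reads. The mean normalized counts in the deposited table (a signal without whole reads), the fold ratio, its log2 and the p-values and q-values come from the authors, per the file headers. A further 2 emptied lines per file were not analysed here.

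UVA was compared with non-irradiated skin by the quasi-likelihood test of edgeR 4.0.16 (R 4.3.3; TMM, default filterByExpr, no covariates, Benjamini-Hochberg over 499 miRNAs, called at 0.05). SE is the absolute log2 fold change over the square root of F. Alternatives used DESeq2 1.42.0, limma 3.58.1 and other scalings. On simulated counts of these miRNAs, edgeR called 10.9% of changes of 2-fold, 36.2% of those of 4-fold and 74.5% of those of 8-fold. Mature sequences were matched to GENCODE hairpins (GRCm38); the RefSeq table held 2 of the 44, with the same sequence. The members, marker lists and tests were chosen with earlier results of these data known. The text names tested members, and the most read or a singled-out untested one; motifs, miR-669e-3p and the chromosome exceptions were chosen after values were seen. No replicate pair agreed within sampling noise.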

Additional observations from a re-analysis of the deposited data

How the results depend on the processing

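The count of 1 member called lower became 5 (DESeq2), 3 (limma-voom) and 2 (sequences within 1 edit summed). It became 0 with unscaled library size, 0 with the authors' totals and 0 with no low-count filter. Leaving out 1 library gave 0 (UVA replicate 2, non-irradiated replicates 1 and 3) to 3 (UVA replicate 3), and leaving out both non-irradiated libraries with few low counts, chosen after seeing the data, gave 0. Over all miRNAs 109 were called, 167 with the authors' totals, 191 with DESeq2, 38 to 124 without single libraries (38 when UVA replicate 2 was dropped, 57 and 63 when non-irradiated replicate 1 or 2 was), and 1 without both of these. The members' median of -1.56 was -1.04 with unscaled library size, -0.87 with the authors' totals and -0.54 with no filter, then over all 44.

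Of 224 alternative values of single tested members, 195 kept sign and side of the threshold, 10 lost and 12 gained a call, and 7 turned sign. All 10 losses were of miR-669a-5p/miR-669p-5p. miR-467b-5p turned to 0.30 with unscaled library size, 0.86 with the authors' totals, 1.49 with limma-voom, 0.96 with the replicate block and 1.67 without non-irradiated replicate 3 (lowest with 1 library left out, -1.05), miR-669a-3p/miR-669o-3p to 0.21 with the authors' totals, and miR-466b-3p/miR-466c-3p/miR-466p-3p to 0.18 without non-irradiated replicate 1 (lowest with 1 library left out, -2.72). As RPM of the authors' totals the mean miR-467 sum without irradiation was 70.5, and the mean miR-669 sum was 21.9 with UVA and 42.8 without. The 5p share of member reads averaged 86.6% with UVA and 91.2% without, and 74.3% and 83.8% without miR-467a-5p. The cause of these shifts was not tested. Same-numbered libraries of the groups had correlations of 0.0897, -0.0621 and -0.0533, within the range of differently numbered ones (-0.0941 to 0.132). With 3 libraries per group this cannot show whether the numbers pair the samples. The replicate block gave 0 called members and 106 called miRNAs. Members under about 10 reads a library are limited by counting error.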
